A study of Mus musculus with 6 samples.

Results

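The PYHIN genes, also called the Ifi200 family, were described in OT-I T cells with and without Themis. Members were taken by gene symbol (symbols from Ifi200 to Ifi219, Mndal, Pyhin1 and Aim2) from the deposited table, which holds 854 genes. The rule found 10 genes: Ifi203, Ifi204, Ifi206, Ifi207, Ifi208, Ifi209, Ifi211, Ifi213, Ifi214 and Mndal. All cells were OT-I, with a transgenic T-cell receptor specific for ovalbumin. Naive cells came from spleen and lymph nodes of mice that were wild-type (WT) or had Themis, a T-cell protein of receptor signalling, conditionally knocked out (cKO). Each genotype gave 3 libraries after 3 days of culture in 1 µg/ml IL-2. The promoter that drives Cre and the age of the animals are not given in the sources used here.

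PYHIN proteins combine a pyrin domain, which binds other pyrin domains, with a HIN domain, which binds DNA, although some members carry the pyrin domain alone. The best known, AIM2, senses DNA in the cytosol and assembles an inflammasome. Most mouse members lie side by side in a rapidly duplicating cluster, and many are induced by interferons. Type I interferon acts through the factor ISGF3, which binds an element in promoters called the ISRE, built from repeats of GAAA.

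The members lay in 1 cluster of 474 kb on chromosome 1 (GRCm38.p6, RefSeq gene spans). In order along the chromosome they were Ifi206 (chr1:173468485-173491318), Ifi214 (chr1:173521311-173535957), Ifi213 (chr1:173566280-173599348), Ifi209 (chr1:173630859-173647928) and Ifi208 (chr1:173673628-173698393). Ifi207 (chr1:173723424-173741831), Ifi204 (chr1:173747293-173767069), Mndal (chr1:173857215-173880382), Ifi211 (chr1:173896339-173913087) and Ifi203 (chr1:173920400-173942866) followed. RefSeq lists 14 family genes there. Aim2, Ifi202b, Ifi205 and the pseudogene Ifi203-ps were not in the table, so their counts were not analysed here. RefSeq gives Pyhin1 as a synonym of Ifi209, Pydc3 of Ifi208, Pydc4 of Ifi213, Mnda of Ifi211 and Ifi16 of Ifi204. Of 65 other RefSeq genes within 1 Mb of the members, 37 of them protein-coding, 0 were in the table. The table holds 854 genes, of 16996 that the deposited p- and q-values imply, so a count of 0 among these neighbours says little.

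Promoter windows of 300 bases (250 before and 50 after the RefSeq transcription start) were given for 9 of the 10 members, and Ifi204 had none. They are shown because 8 of the 9 held an ISRE-type motif close to the start. The motif searched, on both strands, was GAAA followed by any 2 bases and GAAA again. The 60 bases around the match on the gene strand follow for these 8 genes, 5′ to 3′, with the match in capitals.
Ifi203: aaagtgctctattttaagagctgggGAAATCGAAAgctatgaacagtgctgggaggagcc
Mndal: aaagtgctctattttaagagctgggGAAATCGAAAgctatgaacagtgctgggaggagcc
Ifi206: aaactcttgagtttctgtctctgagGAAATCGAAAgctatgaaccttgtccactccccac
Ifi208: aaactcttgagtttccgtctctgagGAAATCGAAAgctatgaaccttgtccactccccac
Ifi213: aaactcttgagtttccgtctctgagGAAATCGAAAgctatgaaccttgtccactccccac
Ifi214: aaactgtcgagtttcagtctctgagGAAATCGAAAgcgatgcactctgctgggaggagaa
Ifi207: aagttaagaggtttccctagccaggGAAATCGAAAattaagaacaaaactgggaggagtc
Ifi211: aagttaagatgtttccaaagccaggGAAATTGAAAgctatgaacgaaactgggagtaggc
On GRCm38.p6 these stretches lie at chr1:173942493-173942552 (Ifi203, minus strand), chr1:173880189-173880248 (Mndal, minus strand), chr1:173491324-173491383 (Ifi206, minus strand), chr1:173673582-173673641 (Ifi208, plus strand). Those of the other 4 genes lie at chr1:173599311-173599370 (Ifi213, minus strand), chr1:173536002-173536061 (Ifi214, minus strand), chr1:173741816-173741875 (Ifi207, minus strand) and chr1:173913049-173913108 (Ifi211, minus strand). The match began 35 bases before the start in Ifi203, 36 in Mndal, 37 in Ifi211, 40 in Ifi206, 41 in Ifi207, 58 in Ifi208, 73 in Ifi213 and 79 in Ifi214. Mndal also had a match on the opposite strand of its other listed window. The remaining gene, Ifi209, lacked the motif by a single base, and its corresponding stretch (chr1:173630755-173630814, plus strand) is shown with the near-match in capitals.
Ifi209: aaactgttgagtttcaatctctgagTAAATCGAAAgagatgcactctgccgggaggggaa
Against GAAATCGAAA, with positions counted from 1 at its 5′ end, Ifi209 carried G1T. A motif match is a description of the sequence and not a measured binding site.

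The ISRE-type motif was present in the windows of 3.99% of 27025 genes. Of 3 family genes with a window that are not in the table, 1 (Ifi205) also held the motif. Among tested genes of the table that were lower in cKO, leaving out the PYHIN genes, 57 of 451 with a window held it (12.6%), and among those that were higher 6 of 144 did (4.17%). The exact run GAAATCGAAA, chosen after the sequences were seen, occurred in 16 of the 27025 genes, and 7 of these 16 were PYHIN members: Ifi203, Ifi206, Ifi207, Ifi208, Ifi213, Ifi214 and Mndal. Within each group of near-copies described below the occurrences are not independent. Of the other 9 genes, 2 were in the table: Ddx58, the RNA sensor RIG-I, at a log2 fold change of -1.52, and Parp11, a mono-ADP-ribosyltransferase, at -1.18. Both were called lower, as were 75.8% of tested genes, but with TMM scaling over the table Ddx58 was at -0.22 (adjusted p = 0.0207, edgeR) and Parp11 turned to 0.12 (adjusted p = 0.389, edgeR). The motif extended by CT matched in none of the 9 members' windows, and in 0.303% of all genes.

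Longer context is given for Ifi207, the member with the lowest fold change described below (chr1:173741760-173742059, minus strand), and for Mndal, the member with the smallest fall (chr1:173880138-173880437, minus strand). Motif matches on the gene strand are in capitals.
Ifi207: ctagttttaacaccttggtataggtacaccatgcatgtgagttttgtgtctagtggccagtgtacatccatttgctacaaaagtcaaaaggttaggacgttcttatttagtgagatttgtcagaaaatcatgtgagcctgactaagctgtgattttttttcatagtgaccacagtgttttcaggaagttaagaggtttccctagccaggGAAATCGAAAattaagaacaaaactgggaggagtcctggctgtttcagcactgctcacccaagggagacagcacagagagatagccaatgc
Mndal: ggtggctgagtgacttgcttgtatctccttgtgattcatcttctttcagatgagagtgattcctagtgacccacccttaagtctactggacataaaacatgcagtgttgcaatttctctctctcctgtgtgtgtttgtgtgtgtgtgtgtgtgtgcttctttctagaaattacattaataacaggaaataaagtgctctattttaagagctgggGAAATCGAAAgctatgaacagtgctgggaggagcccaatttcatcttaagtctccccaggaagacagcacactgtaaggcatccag
The windows carry the same 10-base run, 41 and 36 bases before the start, in surroundings that were 56.4% identical.

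Over the table's 854 genes the counts summed to 946766 to 1054442 in WT libraries and to 424605 to 437437 in cKO libraries, which are not sequencing depths. Themis had 5506, 5765 and 4946 scaled counts in WT and 972, 1221 and 1210 in cKO, a log2 fold change of -2.25. Scaled counts are the deposited counts divided by factors estimated within each genotype, with both genotypes held at equal depth. Log2 ratios of cKO to WT means left an empty interval from -0.94 to 1.06, so the table had been picked for large differences in these same libraries. A member's presence, and its passing the test, is therefore not independent evidence. None of the 8 CD8 T-cell markers looked for (among them Cd3e, Cd8a and Lck) was in the table, so the labelled cell type was not checked here.

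All 10 members were lower in Themis cKO than in WT. Their summed scaled counts were 64380, 65364 and 65201 in WT and 17130, 17177 and 17354 in cKO, 3.77-fold lower. Log2 fold changes ran from -5.13 in Ifi207 to -1.64 in Mndal, with a median of -1.99, against -1.35 for all 794 tested genes and -1.64 for the 602 of them that were lower. All 10 passed an adjusted p of 0.05 (edgeR quasi-likelihood test, Benjamini-Hochberg over the 794 genes), in a table where 100% of tested genes passed and 75.8% passed as lower. No WT library overlapped a cKO library in any member, as was so, in the lower direction, for 75.7% of tested genes. In bulk RNA, fewer cells expressing these genes and less RNA per cell cannot be told apart.

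**Figure D1:**
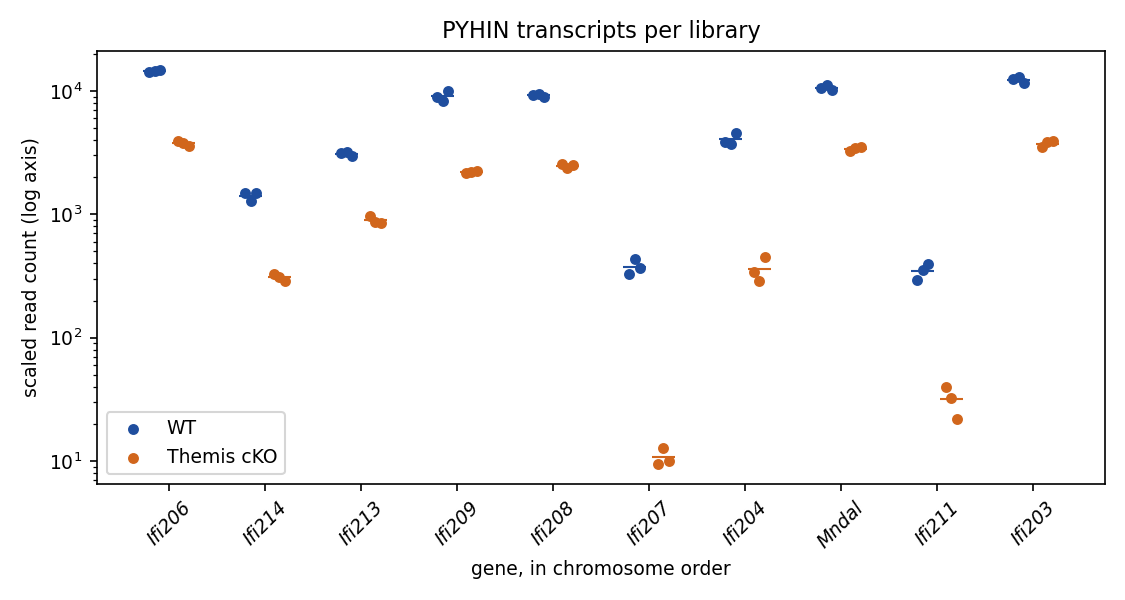
Scaled read count (log axis) of each PYHIN gene, in chromosome order, in the 3 WT and 3 Themis cKO libraries, with points for libraries and short lines for means. WT points lie above cKO points in all 10 genes, and the gap is widest for Ifi207.

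Ifi204, Ifi207 and Ifi211 had the lowest fold changes. Ifi204, the p204 protein often grouped with human IFI16 as a DNA sensor, had 3859, 3733 and 4584 scaled counts in WT and 339, 285 and 449 in cKO. It was 11.3-fold lower, a log2 fold change of -3.50 (SE 0.17, adjusted p = 4.85e-08, edgeR). The third WT library and the third cKO library were the highest of their genotypes.

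Ifi207 had 328, 432 and 366 scaled counts in WT and 9.47, 12.8 and 10.01 in cKO. It was 34.9-fold lower, a log2 fold change of -5.13 (SE 0.22, adjusted p = 2.34e-08, edgeR). Only 17 of the 794 tested genes had a lower value. Its cKO level of about 10 counts per library leaves that side of the ratio with few reads.

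Ifi211 had 292, 356 and 399 scaled counts in WT and 40.2, 32.7 and 21.9 in cKO, a log2 fold change of -3.47 (SE 0.23, adjusted p = 3.50e-07, edgeR). The first cKO library was the highest of its genotype and the third the lowest. It had the largest relative spread of the family, with a coefficient of variation (CV, SD over mean) of 15.4% in WT and 29.1% in cKO.

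The other 7 members had log2 fold changes between -2.20 and -1.64. Ifi214 had 1476, 1273 and 1487 scaled counts in WT and 326, 312 and 286 in cKO (log2 fold change -2.20, SE 0.12). Ifi209 had 8895, 8263 and 9934 in WT and 2175, 2195 and 2228 in cKO (-2.04, SE 0.08). In both genes the WT libraries spread more, relative to their mean, than the cKO libraries.

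Ifi206, Ifi208 and Ifi213 stood close together. Ifi206 had 14202, 14541 and 14671 scaled counts in WT and 3956, 3817 and 3575 in cKO (-1.94, SE 0.06). Ifi208, a pyrin-domain gene, had 9216, 9458 and 8951 in WT and 2552, 2373 and 2529 in cKO (-1.89, SE 0.07). Ifi213, also a pyrin-domain gene, had 3150, 3215 and 2960 in WT and 965, 861 and 856 in cKO (-1.80, SE 0.09). Each of the 3 was 3.48- to 3.83-fold lower in cKO.

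Ifi203 and Mndal had the smallest falls. Ifi203 had 12490, 12867 and 11640 scaled counts in WT and 3494, 3839 and 3901 in cKO (-1.72, SE 0.07). Mndal, named for its likeness to the myeloid nuclear antigen MNDA, had 10472, 11224 and 10209 in WT and 3273, 3450 and 3498 in cKO (-1.64, SE 0.07). Across these 7 genes the adjusted p was at most 9.67e-08 (edgeR).

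**Figure D2:**
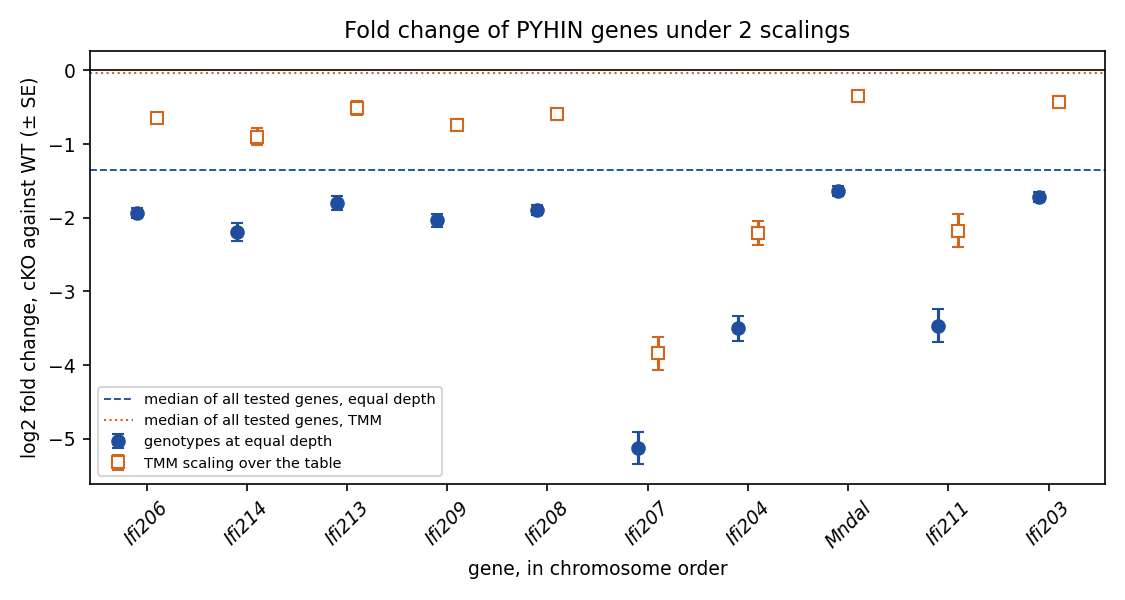
Log2 fold change of cKO against WT for each PYHIN gene in chromosome order, with standard errors, with the genotypes at equal depth (circles) and with TMM scaling over the whole table (squares); dashed and dotted lines mark the medians of all tested genes under each. All 10 genes lie below 0 under both, from -5.13 to -1.64 at equal depth, and Ifi204, Ifi207 and Ifi211 lie lowest.

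The true depth of the libraries is unknown, so the size of these values depends on the scaling. With TMM, DESeq2 size factors or DESeq2 itself, which centre the table on its own genes, the median of all genes moved up by 1.29 to 1.30 on the log2 scale. The members then ran from -3.84 in Ifi207 to -0.34 in Mndal, and all 10 were still called lower (adjusted p at most 0.00217), against 27%, 26.8% and 25.2% of tested genes. With p-values adjusted over the 16996 genes that the deposited p- and q-values imply, all 10 were called lower, against 70.5% of tested genes.

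Per kilobase of the longest protein-coding GENCODE M21 transcript, the members' levels in WT had a mean ± SD (n = 3) of 5249 ± 260 scaled counts per kb in Mndal, the highest, and 110 ± 15.4 in Ifi207, the lowest. The order in between was Ifi206 (4749 ± 79.6), Ifi203 (3285 ± 168), Ifi208 (3080 ± 84.9), Ifi209 (2626 ± 245), Ifi204 (1768 ± 200), Ifi213 (1131 ± 48.3), Ifi214 (489 ± 41.8) and Ifi211 (196 ± 30.2). Of neighbours in this order, Ifi203 and Ifi208 overlapped between libraries and the others did not. In cKO the levels spanned from 1682 ± 58.3 in Mndal to 3.14 ± 0.519 in Ifi207, with no overlap between neighbours. The order was the same except that Ifi204 (156 ± 36.4) stood below Ifi213 (325 ± 22.5). Which isoforms the cells made was not analysed here.

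In these libraries several members differed between the genotypes in their share of the family's counts. The shares were not tested, and they depend on how reads were split between members. Of the family's scaled counts, Ifi204 made up 6.24 ± 0.69% in WT and 2.08 ± 0.47% in cKO (SD, n = 3). Ifi207 went from 0.58 ± 0.08% to 0.06 ± 0.01%, and Ifi211 from 0.54 ± 0.08% to 0.18 ± 0.05%. Mndal made up 16.4 ± 0.76% in WT and 19.8 ± 0.58% in cKO, and Ifi203 19.0 ± 0.99% and 21.7 ± 1.17%. Ifi206, the member with the most counts, held 22.3 ± 0.22% and 22.0 ± 1.26%.

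Ratios of members within a library (log2 of scaled counts with 0.5 added) are nearly free of the scaling, and 45 pairs were compared. In 35 of the 45 the genotypes did not overlap (77.8% of pairs, against 68.1% of all pairs of tested genes). Each of these had the smallest p that 3 libraries against 3 allow, 0.10 (exact two-sided permutation test), or 0.129 after Benjamini-Hochberg adjustment over the 45 pairs, so no pair could pass 0.05.

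The largest differences involved Ifi207. That of Ifi207 to Mndal was the largest, with log2 ratios of -4.83 ± 0.15 in WT and -8.25 ± 0.20 in cKO (SD, n = 3). The log2 ratio of Ifi208 to Ifi207 averaged 4.62 ± 0.18 (SD, n = 3) in WT and 7.80 ± 0.28 (SD, n = 3) in cKO, with an exact permutation p of 0.1. Ifi207 against Ifi211 stood at 0.11 ± 0.21 in WT and -1.48 ± 0.49 in cKO, so Ifi207 fell further than Ifi211 in these libraries by 1.59 on the log2 scale (exact permutation p = 0.1). Ifi204 against Ifi211 was 3.54 ± 0.17 and 3.50 ± 0.72, with overlapping libraries, and the sign of this difference of -0.04 turned on which library was left out.

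**Figure D3:**
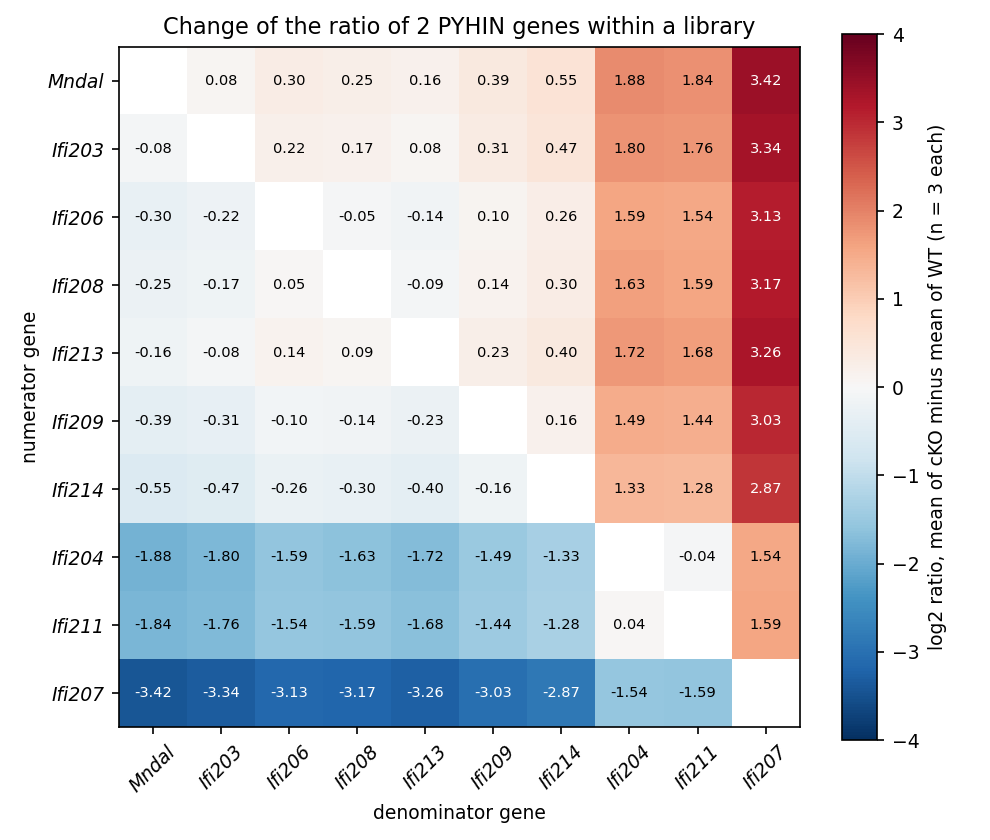
Change in the log2 ratio of a row gene to a column gene within a library, mean of cKO minus mean of WT (n = 3 each), for the 10 PYHIN genes, with red for a row gene that was lowered less. Ifi207 stands apart from all others, and Ifi204 and Ifi211 from the remaining 7, while those 7 differ from each other by 0.55 or less.

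The promoter windows shown above fell into 4 groups of near-copies, when windows at least 80% identical were joined, a limit set after the identities were seen. Ifi203 and Mndal were 94.3% identical, Ifi209 and Ifi214 95.7%, Ifi207 and Ifi211 87.5%, and Ifi206, Ifi208 and Ifi213 98.5% to 98.9%. Windows of different groups were 51.2% to 59.9% identical. The window of Ifi205, a family gene that is not in the table, was 93.1% identical to that of Ifi211 and 86.6% to that of Ifi207. The aligned parts held 203 and 209 columns. Likeness to this group is thus not confined to members of the table. Set beside the fold changes, the groups ran from -1.72 to -1.64 (Ifi203, Mndal), -1.94 to -1.80 (Ifi206, Ifi208, Ifi213), -2.20 to -2.04 (Ifi209, Ifi214) and -5.13 to -3.47 (Ifi207, Ifi211). These ranges are of fitted values, and the libraries did not resolve the place of the Ifi206 group against the Ifi203 and Ifi209 groups. In 6 of 30 pairs of genes from different groups the log2 ratios overlapped between the genotypes. Among them were Ifi206 with Ifi209 and Ifi213 with Ifi203 (exact permutation p = 0.4 for each). Each of these 6 pairs held Ifi206, Ifi208 or Ifi213. Ratios of Ifi207 and Ifi211 to genes of the other groups did not overlap. Nor did those of Ifi203 and Mndal to Ifi209 and Ifi214. Each had an exact permutation p of 0.1, the smallest these libraries allow, so their separation is descriptive. In 3 of 6 pairs from the same group the ratios did not overlap, as for Ifi207 with Ifi211. The 24 of 30 and 3 of 6 without overlap stand beside 68.1% of all pairs of tested genes. Whether these shares differ was not tested.

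**Figure D4:**
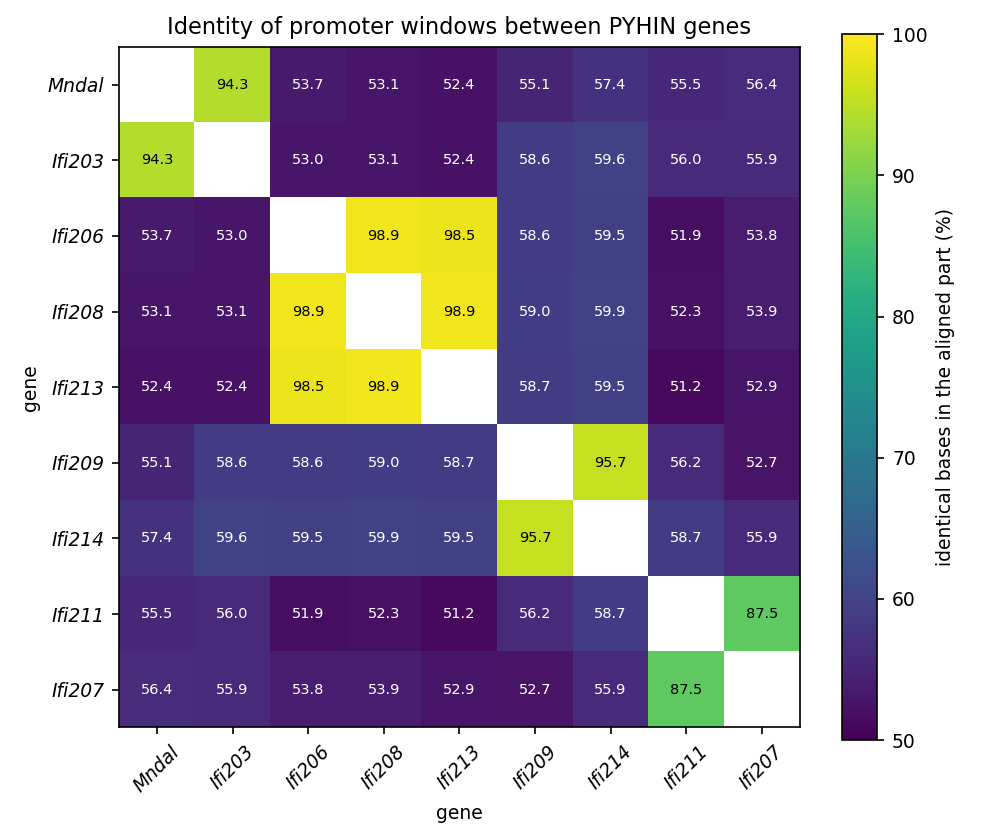
Percent identity of the aligned promoter windows for the 9 PYHIN genes with a window, in the gene order of the plot of pair ratios. The 4 groups of near-copies have 87.5% or more, and all other pairs 59.9% or less.

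Transcripts of the family are alike in part, within these groups and across them, so reads can be shared between genes. Only 1 of the members' 60 deposited values was a whole number, whereas 33.9% of all values in the table were not whole, and a value that is not whole is what splitting of reads between genes gives. Of the 50-base stretches of a member's transcript, the share that also occurs in another family gene ran from 5.31% in Ifi207 to 72.9% in Ifi211. Ifi209 and Ifi214 shared 34.7% and 35.0% of their stretches with each other, Ifi208 and Ifi213 21.1% and 22.9%, and Ifi206 10.6% with Ifi208. Ifi203 and Mndal shared 5.18% and 5.51%, and Ifi207 and Ifi211 2.4% and 4.95%. Across groups, Mndal shared more with Ifi211 (14.97%) than with Ifi203. Counts of single members are thus uncertain where these shares are large, and their part in the closeness of the fold changes was not tested.

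Ifi211 shared 44.6% of its stretches with Ifi205, which is not in the table, 30.0% with Ifi204 and 17.1% with Mndal. Ifi207, with the lowest fold change, had the smallest shared part (0.27% for stretches of 100 bases, chosen after seeing the data). The sum over the family does not depend on how reads were split between the 10 genes, but it does depend on splits with other genes. Mndal shared 13.25% of its stretches with Ifi205. For Ifi206, 24.5% of stretches occurred in some other gene and 15.1% in another family gene.

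In the authors' deposited table all 10 members were also lower, with log2 values from -4.78 (Ifi207) to -1.37 (Mndal). The q-values in the authors' deposited table ran from 1.96e-05 for Ifi207 to 0.0388 for Ifi214, so all 10 were under 0.05, as were 55% of the table's genes in the lower direction. Every one of these log2 values was closer to 0 than the fitted value, by a median of 0.36, against 0.27 for the other tested genes that were lower. For Themis the authors' deposited table gives -2.25, the same as the fit, with a q-value of 1.07e-104. For Ifi206 the authors' deposited table gives a q-value of 0.0340. Its scaled counts had a CV of 1.68% in WT, the smallest of the family there, and 5.09% in cKO. A CV within a genotype and a q-value of a test between genotypes are unlike measures.

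Other genes of the interferon pathway were compared in the same libraries, where 75.8% of all tested genes were called lower, and most listed genes of the receptor and of sensing were not in the table. Of 10 genes listed for the interferon receptor and ISGF3, 2 were in the table and both fell: Stat2, a subunit of ISGF3, at -1.76 and Usp18, an interferon-induced brake on the receptor, at -3.63. Of 26 genes of nucleic acid sensing and the inflammasome, 10 were in the table and all 10 fell, with a median of -1.95. Among them Zbp1, a sensor of Z-form nucleic acids, was at -1.65, Irf7, a factor that drives interferon genes, at -2.57, and Dhx58, a relative of RIG-I, at -3.26. Of 57 interferon-induced antiviral effectors, 39 were in the table and all 39 fell, with a median of -2.28. The median was -1.35 for all tested genes and -1.64 for the 602 of them that were lower. Of the 4 effectors with the highest mean count in WT, Trim30a (-1.97) and Helz2 (-2.02) lay near the PYHIN median. Oasl2 (-3.02) lay below it and Dtx3l (-1.17) above it, the last turning to 0.12 with TMM. Ranking over both genotypes was not used. These lists overlap in what interferon induces, and the table was picked on the same libraries, so their counts are not independent of the family's. With TMM scaling, where 27% of tested genes were called lower, 7 of 10 sensing genes, 2 of 2 of the receptor list and 31 of 39 effectors were. The sign turned in 2 sensing genes and 4 effectors, and 1 effector was called higher. Of 7 type I interferon genes in the table, 5 were tested and all 5 fell, and Ifnb1 had 42, 36 and 51 counts in WT and 0 in each cKO library.

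**Figure D5:**
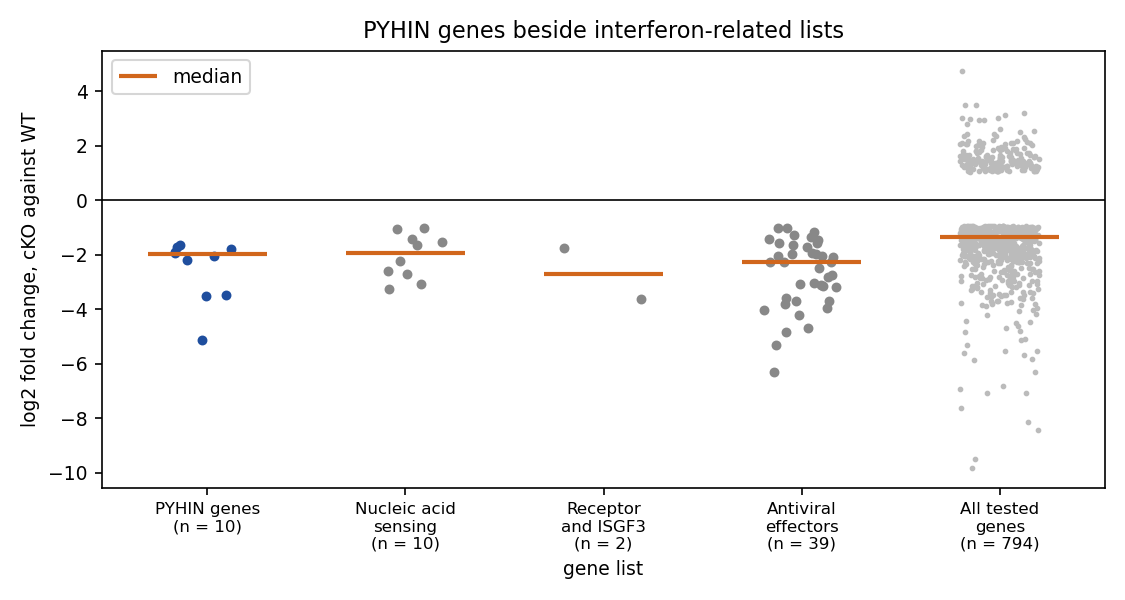
Log2 fold change of cKO against WT for each tested gene of the PYHIN family (n = 10), of the lists of nucleic acid sensing (n = 10), receptor and ISGF3 (n = 2) and antiviral effectors (n = 39), and of all tested genes (n = 794), with medians as bars. The PYHIN median of -1.99 lies between the antiviral effectors at -2.28 and all tested genes at -1.35, and the empty band around 0 is the part of the fold range that the table leaves out. The median of the lower tested genes alone, not drawn, was -1.64.

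Across the 6 libraries, the genes with a pattern most like that of Ifi206, by Pearson's r of log2 scaled counts, were Tor3a (r = 0.9998), Ifih1 (0.9996), Herc6 (0.9996), Trafd1 (0.9995) and Parp12 (0.9995). For Mndal they were Nr4a1 (0.9999), Zfp36l1, Slfn8, Cd69 and Slfn5, and for Ifi207 Nr4a2 (0.9992), Ifit2, Ifit1, Thrb and P4ha2. These values describe 6 libraries that share the genotype difference and the scaling. Nearly any of the 602 genes that were lower in cKO, of 794 tested, would follow that pattern. With the genotype means removed, r between pairs of members ran from -0.94 to 0.98 with a median of -0.11. From 3 libraries per genotype such values are too uncertain to show whether the members moved together.

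PYHIN genes are also expressed by myeloid cells, and markers of other cell types moved in these libraries. Of 9 macrophage and monocyte markers, Mpeg1 and Ly6c2 were in the table and both were lower (-2.92 and -1.01), with summed scaled counts of 6554 to 10552 in WT and 3618 to 4220 in cKO. With TMM scaling Mpeg1 stayed lower (-1.62) and Ly6c2 turned to 0.29 (adjusted p = 0.127, edgeR). Most of that sum is Ly6c2, which is on the antiviral effector list too. The other 7, among them Lyz2, Csf1r and Itgam, were not analysed here. Of 11 dendritic cell markers 4 were in the table, with Bst2 (-1.29) and H2-Ab1 (-1.73) lower and Itgax and H2-Eb1 higher, and sums of 4761 to 5002 in WT and 1794 to 2384 in cKO, most of them Bst2, also an antiviral effector. Both lower calls ended with TMM scaling, with Bst2 at 0.0095 (adjusted p = 0.949, edgeR) and H2-Ab1 at -0.44 (adjusted p = 0.341, edgeR). The table held 3 of 7 B-cell markers, each of them higher (sums of 59.8 to 101 and 117 to 306), as were 4 of 6 NK-cell markers (376 to 630 and 1021 to 1833). Their part in the PYHIN values was not tested.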

How the data were processed

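Per the labels' protocols, RNA of the cultured cells was purified with RNeasy columns and sequenced as DNBSEQ-G400 libraries. The submitters' processing notes name RSEM 1.2.12, HISAT2 2.0.4, DESeq2 1.4.5 and Bowtie2 2.2.5, with the genome GRCm38.p6, and no role for any. The authors deposited estimated counts for 854 genes in 6 libraries. Beside them stand the authors' log2 fold changes, p-values and q-values, per the file headers. The sources used here do not say how the genes were chosen. Nor do they say whether replicates were different animals or cultures, so each p-value reflects only the spread of these libraries, possibly technical.

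Counts were rounded and fitted with edgeR 4.0.16 in R 4.3.3 (quasi-likelihood F-test, genotype only, smallest count 10 in edgeR's expression filter, 794 genes tested, Benjamini-Hochberg, called at 0.05). Factors were medians of ratios within each genotype (0.947 to 1.05). The fit was checked on simulated counts with changes in both directions in part of the genes, similar depths and a single dispersion. That setting differs from a table picked for large differences at unknown depth, so it could not check the scaling between genotypes. Replicates differed by more than sampling noise (chi-square per degree of freedom 6.35 to 19.8), so all 6 libraries were kept. Same-numbered libraries did not deviate together. RefSeq windows (GRCm38.p6) and GENCODE M21 transcripts gave the sequences, and windows were aligned with Biopython 1.88. DESeq2 1.42.0 served for alternatives, scipy 1.17.1 for permutation tests and matplotlib 3.10.9 for plots, with numpy 2.4.6 and pandas 2.3.3 in Python 3.11.15.

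The members and lists were chosen with earlier results of these data known. Genes named are all members, the 5 genes most like a member by Pearson's r (predicted genes left out), up to 4 members of a list by mean count in WT, table genes within 1 Mb, and Themis. Ifnb1 and Parp11 were named after their values were seen. A search for another motif is not reported here.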

Additional observations from a re-analysis of the deposited data

How the results depend on the processing

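All 10 PYHIN members were lower and called in every alternative run: 3 table-centred scalings (log2 fold changes of -3.84 to -0.34, 30 values) and 12 others (-5.29 to -1.59, 120 values), including each library left out, no filter, no scaling, DESeq2 with the main factors, an adjustment over the 16996 genes that the deposited p- and q-values imply, and, added after seeing the data, the empty interval centred on 0. The genes called over the whole table, 794 as reported with 602 lower, were 439 with 213 lower under TMM, 435 with 211 lower under DESeq2 size factors and 451 with 215 lower in DESeq2. Those centred scalings turned a split of 192 higher and 602 lower into 226 and 213, 224 and 211, and 236 and 215. With the replicate number as a block 793 genes and all 10 members were called. Deviations of same-numbered libraries from their genotype means correlated at -0.07, -0.04 and -0.14, and no library correlated best with its own number. With so few libraries this check cannot show whether same-numbered libraries shared an origin, which the sources do not say. The difference in the ratio of Ifi204 to Ifi211 ranged from -0.46 to 0.18 with a library left out, and that of Ifi206 to Ifi208 from -0.086 to 0.0068; both changed sign, the first without WT replicate 1, cKO replicate 1 or cKO replicate 2, the other without cKO replicate 3, and the cause was not tested. The ISRE-type motif found in 8 members' windows was found in 0 when extended by CT. Library depths are unknown, which limits the size of each fold change, and Ifi207 and Ifi211 rest on few cKO reads.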
